A study of Rattus norvegicus with 10 samples.

Results

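The transcripts described here are those of 10 genes of the axonal cytoskeleton: the neurofilament subunits Nefl, Nefm and Nefh, the related intermediate filament proteins Ina and Prph, the growth-associated genes Gap43 and Stmn2, the microtubule-associated genes Map1b and Mapt, and the neuronal ubiquitin hydrolase gene Uchl1. All probe sets whose platform annotation gave exactly 1 gene symbol equal to one of these names were taken, whatever their values, which gave 18 of 31042 probe sets that were not array controls. After a filter that kept the brightest 60% of probe sets without regard to group, 15 of the 18 were among the 18625 that were tested, and they stood for 9 of 10593 genes. Prph had no probe set above the filter.

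RNA came from pituitary tissue, the neurointermediate lobe, of male rats of the Sprague Dawley strain at 10 to 12 weeks of age. The lobes of rats dehydrated for 3 days filled 5 Affymetrix Rat Genome 230 2.0 arrays and those of control rats another 5, with a separate pool of 5 animals on each array. The labels give no batch or pairing, so arrays are numbered 1 to 5 within each group as names alone. The design text of the series names the supraoptic nucleus, while the title and all sample labels name the lobe studied here, and they were followed.

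The neural part of this lobe is filled with the axons and nerve endings of magnocellular neurons, whose cell bodies lie in the hypothalamus. Neurofilaments are built of light, medium and heavy subunits, often with alpha-internexin or peripherin, and they set the calibre of axons. Microtubules, which associated proteins stabilise or loosen, are the tracks along which hormone granules reach the endings. Most mRNA of a neuron lies in its cell body, and the lobe also holds pituicytes, which are glia, and endocrine melanotrophs, so the source of a signal in whole lobe RNA cannot be told from these arrays.

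The values are the authors' signal intensities, which had a mean of 100.02 to 100.03 on every array after 2% of probe sets were trimmed at each end, so that each change is read against the common level of an array. Between arrays the log2 signals correlated at 0.947 to 0.976. The log2 ratio of 3' to 5' signals, taken over beta-actin and GAPDH control probe sets, which increases as RNA is shortened, was 2.15 ± 0.38 in dehydrated arrays and 1.78 ± 0.48 in control arrays (SD, n = 5 each, exact two-sided permutation p = 0.214). It was highest on dehydrated 2 at 2.67, control 1 at 2.52 and dehydrated 1 at 2.27, and lowest on control 5 at 1.26. Without control 1, the difference of this ratio was 0.56 in place of 0.37, with an exact two-sided permutation p of 0.0476. Leaving out any other single array gave an exact permutation p of 0.103 to 0.405. These runs were added after seeing the data and were not adjusted for their number. The values of the ratio stand beside the members below, and its part in their differences was not tested beyond a fit that holds it as a covariate.

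None of the 9 measured axonal cytoskeleton genes passed the test between dehydrated and control lobes. The log2 changes, dehydrated minus control, of the brightest probe set of each gene lay between -0.31 and 0.13, with 4 above 0 and 5 below, and their 95% intervals all lay within -0.55 and 0.43. Over all tested genes 2.31% passed as higher and 0.878% passed as lower at a limma adjusted p under 0.05, so a count of 0 among 9 genes is close to that background. Over all 15 kept member probe sets the count was also 0, where 2.46% of all probe sets passed. The median log2 change was -0.15 over the 9 genes and 0.01 over all genes. In the same fit Avp, the vasopressin gene, differed by 1.38 (95% interval 1.16 to 1.60) and Oxt, the oxytocin gene, by 0.83 (0.67 to 0.99).

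At an unadjusted p under 0.05 there were 5 of the 15 member probe sets, all lower in dehydrated arrays, beside 17.4% of all probe sets in either direction and 8.66% as lower. These 5 belonged to 3 genes, 1 to Gap43, 2 to Map1b and 2 to Mapt, so they are not 5 separate observations. The groups did not overlap for 1 of the 15, a Gap43 probe set, where 4.59% of all probe sets had groups that did not overlap. In RNA of a whole lobe, fewer cells or axons of a type and less RNA in each cannot be told apart.

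**Figure D1:**
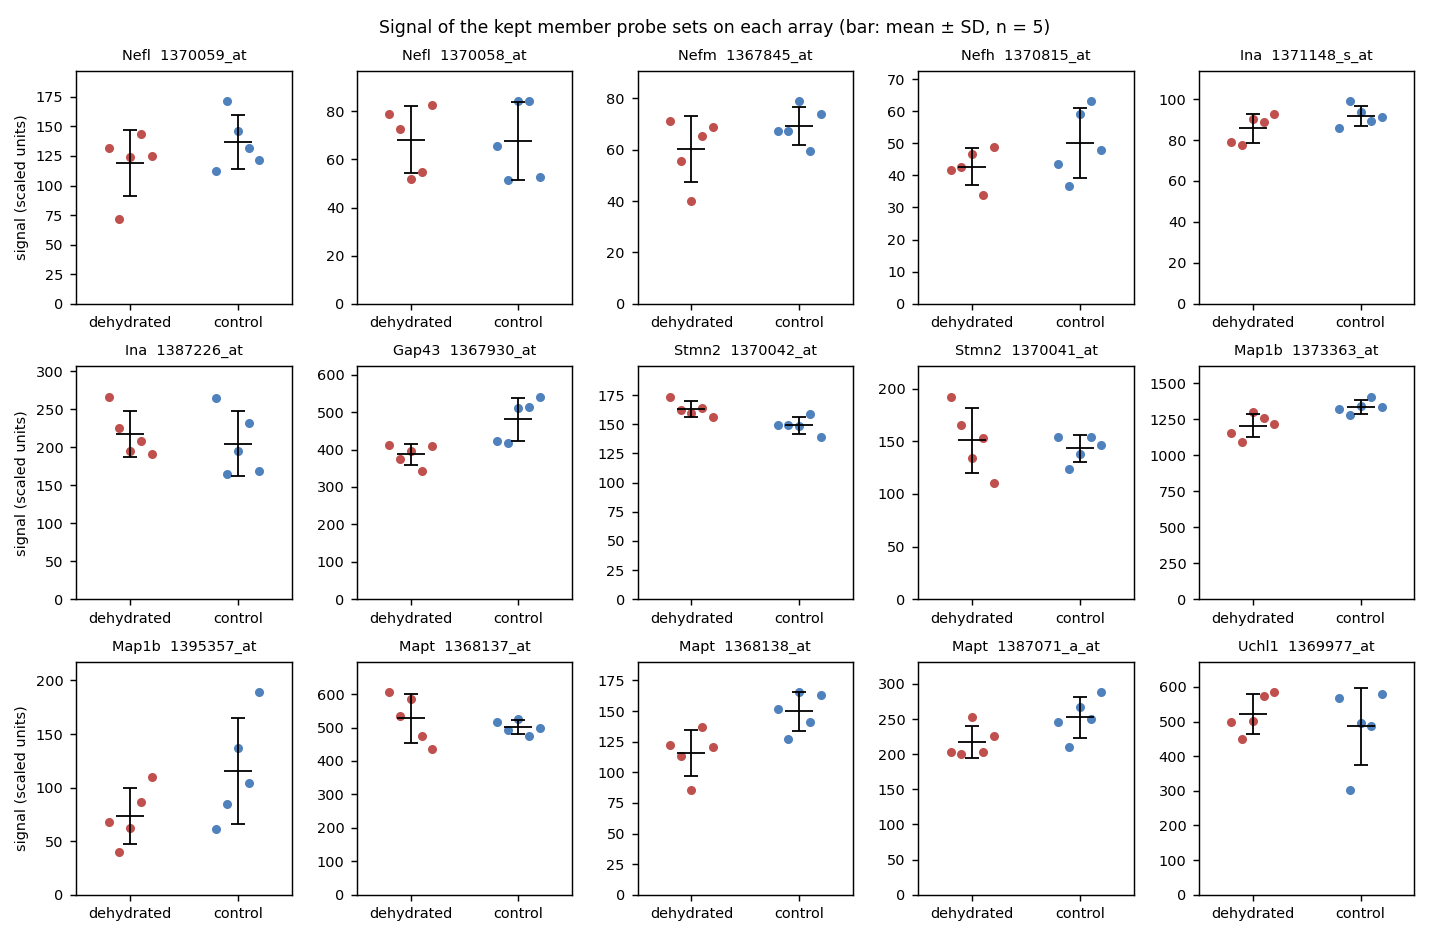
Signal intensity of the 15 kept probe sets of the axonal cytoskeleton genes on each array, with dehydrated arrays at the left and control arrays at the right of each panel (n = 5 each, the bar is the mean). The 2 groups overlap in every panel except that of Gap43 1367930_at, where dehydrated arrays lie between 343.8 and 412.1 and control arrays between 418.0 and 541.5.

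Nefl, Nefm and Nefh encode the light, medium and heavy neurofilament subunits, and Nefl and Nefm are neighbouring protein-coding genes in RefSeq assembly GRCr8. The brighter Nefl probe set (1370059_at, Entrez Gene 83613) read 131.5, 71.3, 124.0, 143.8 and 124.9 in dehydrated arrays 1 to 5, against 112.6, 171.5, 146.0, 131.5 and 121.8 in control arrays 1 to 5. The groups overlapped, dehydrated 2 stood far below the other dehydrated arrays, and the log2 change was -0.21 (95% interval -0.55 to 0.13, limma adjusted p = 0.529). Without dehydrated 2 it was -0.046, so most of the value rests on that array, and in a fit that held the 3' to 5' ratio it was -0.067. The dimmer Nefl probe set (1370058_at) read 79.0, 72.8, 51.9, 54.9 and 82.5 in dehydrated arrays, against 65.8, 51.4, 84.3, 84.2 and 52.6 in control arrays. Both groups spanned the same range here, and the log2 change was 0.02 (95% interval -0.34 to 0.37).

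Nefm (1367845_at, Entrez Gene 24588) read 71.2, 55.5, 40.1, 65.5 and 69.0 in dehydrated arrays, against 67.5, 67.4, 79.0, 59.4 and 73.9 in control arrays. The lowest values were those of dehydrated 3 and dehydrated 2, the other 3 dehydrated arrays lay within the control range, and the log2 change was -0.21 (95% interval -0.52 to 0.10, limma adjusted p = 0.492). Nefh (1370815_at, Entrez Gene 24587) read 41.8, 42.6, 46.7, 33.8 and 49.0 in dehydrated arrays, against 43.6, 36.6, 59.2, 63.2 and 47.8 in control arrays. Control 3 and control 4 were the highest, the groups overlapped, and the log2 change was -0.19 (95% interval -0.52 to 0.14, limma adjusted p = 0.571). With all arrays in the fit, the brightest probe sets of the 3 subunits had similar log2 changes, but this likeness depends on single arrays. Without dehydrated 2 the log2 changes were -0.046 for Nefl, -0.19 for Nefm and -0.19 for Nefh. Without dehydrated 3 that of Nefm was -0.082, and without control 4 that of Nefh was -0.11.

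Ina encodes alpha-internexin, an intermediate filament protein of central neurons that joins the neurofilament. Its brighter probe set (1387226_at, Entrez Gene 24503) read 266.7, 225.4, 195.3, 208.6 and 191.2 in dehydrated arrays, against 264.5, 164.2, 194.6, 231.6 and 168.6 in control arrays. The groups overlapped along nearly their whole range, and the log2 change was 0.10 (95% interval -0.17 to 0.37, limma adjusted p = 0.743). The other probe set (1371148_s_at, a name the maker gives to probes shared by several transcripts) read 79.1, 77.5, 90.4, 88.7 and 92.7 in dehydrated arrays, against 86.0, 99.1, 93.9, 89.1 and 91.4 in control arrays. It differed by -0.10 (95% interval -0.31 to 0.11), with the sign of the neurofilament subunits and not of the brighter Ina probe set.

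Prph encodes peripherin, an intermediate filament protein best known from peripheral neurons. Its only probe set (1368028_at, Entrez Gene 24688) was dim, with 13.3, 16.7, 15.2, 14.5 and 6.5 in dehydrated arrays, against 18.7, 7.2, 11.7, 16.7 and 14.4 in control arrays. Only 29.0% of probe sets were dimmer, the groups overlapped, and whether these signals stand above background is unknown, since no detection calls were used. In a fit without the filter its log2 change was -0.04 (95% interval -0.57 to 0.50).

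Gap43, a membrane-bound protein of growth cones and presynaptic endings, came nearest to the threshold. Its bright probe set (1367930_at, Entrez Gene 29423) read 412.1, 374.4, 395.6, 343.8 and 408.2 in dehydrated arrays, against 421.6, 418.0, 512.0, 513.3 and 541.5 in control arrays. Every dehydrated array lay below every control array, but dehydrated 1 and dehydrated 5 came close to control 1 and control 2. The mean was 387 ± 28.2 in dehydrated arrays and 481 ± 57.4 in control arrays (SD, n = 5 each), a log2 change of -0.31 (SE 0.09, 95% interval -0.49 to -0.12) or 0.81 of the control level. The unadjusted limma p was 0.00291 and the p adjusted over all 18625 probe sets was 0.0750, which misses the threshold. Without dehydrated 5 the log2 change was -0.33 and the adjusted p 0.0464. In that setting 1156 of all probe sets passed in place of 458, and the groups differed by 0.51 in the 3' to 5' ratio in place of 0.37. In a fit that held the 3' to 5' ratio the log2 change was -0.24 and the adjusted p 0.216. A second Gap43 probe set (1371287_at) read 0.1 to 1.8 in dehydrated arrays and 0.0 to 1.8 in control arrays, dimmer than nearly all others, and is given no fold.

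Stmn2 encodes a neuronal stathmin that loosens microtubules at the growing ends of axons. The probe set with the higher mean (1370042_at, Entrez Gene 84510) read 173.7, 162.5, 159.3, 164.1 and 156.0 in dehydrated arrays, against 149.2, 149.1, 148.5, 159.0 and 139.1 in control arrays. Control 4 alone reached into the dehydrated range, and the arrays of each group lay close together, at 163 ± 6.68 in dehydrated arrays and 149 ± 7.04 in control arrays (SD, n = 5 each). The log2 change was 0.13 (95% interval -0.04 to 0.29, limma adjusted p = 0.430). The other probe set (1370041_at) spread more widely, with 192.4, 165.1, 134.5, 152.7 and 110.3 in dehydrated arrays, against 153.8, 123.8, 138.1, 153.8 and 146.1 in control arrays. Dehydrated arrays were here both the highest and the lowest of all, and the log2 change was 0.06 (95% interval -0.21 to 0.32). The pair of growth-associated genes thus had brightest probe sets with changes of opposite sign, neither of which passed.

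**Figure D2:**
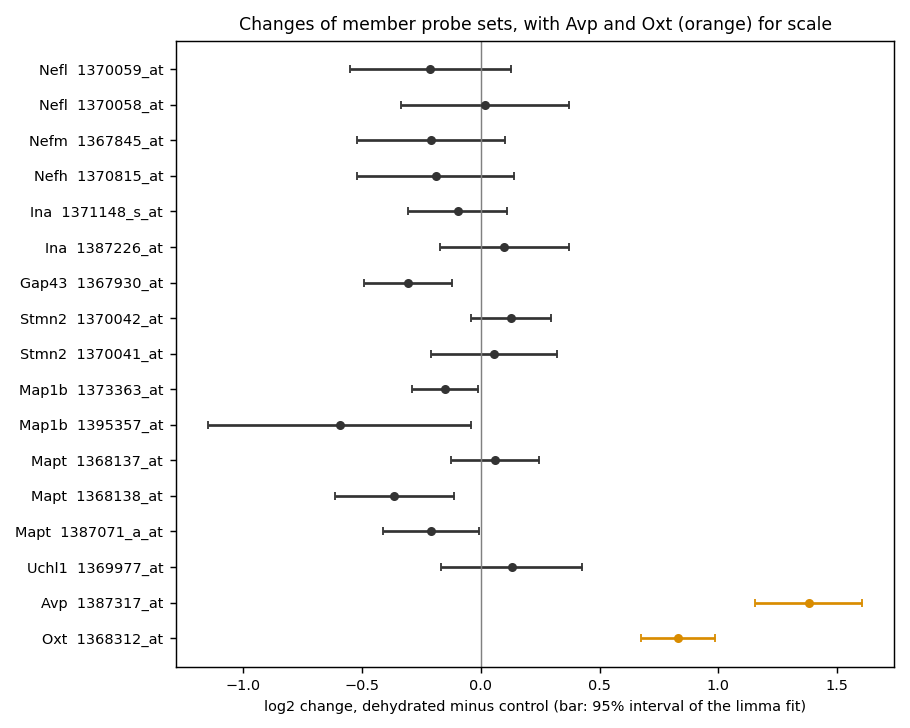
Log2 change, dehydrated minus control, of the member probe sets with 95% intervals from the limma fit over 5 dehydrated and 5 control arrays, with Avp and Oxt in orange for scale. Member changes lie between -0.59 and 0.13, while Avp lies at 1.38 and Oxt at 0.83.

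Map1b encodes a microtubule-associated protein of growing and adult axons. Its brightest probe set (1373363_at, Entrez Gene 29456) read 1157.8, 1096.0, 1298.3, 1257.4 and 1217.0 in dehydrated arrays, against 1319.3, 1278.8, 1345.6, 1408.9 and 1333.9 in control arrays. The groups overlapped only because dehydrated 3 lay above control 2. The mean was 1205 ± 80.2 in dehydrated arrays and 1337 ± 47.3 in control arrays (SD, n = 5 each), a log2 change of -0.15 (95% interval -0.29 to -0.01, limma adjusted p = 0.243). After quantile normalization the same probe set differed by -0.23 and passed (adjusted p = 0.0420).

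A dimmer Map1b probe set (1395357_at) read 67.8, 40, 62.3, 86.5 and 109.6 in dehydrated arrays, against 61.4, 84.9, 137.4, 104.5 and 189.1 in control arrays. Its log2 change of -0.59 was the largest among the members and also the least certain (SE 0.26, 95% interval -1.15 to -0.04, limma adjusted p = 0.255). This probe set moved with the 3' to 5' ratio of the arrays in both groups. The arrays of highest ratio, dehydrated 2, control 1 and dehydrated 1, gave 40, 61.4 and 67.8, whereas the arrays of lowest ratio, dehydrated 5, control 3 and control 5, gave 109.6, 137.4 and 189.1. With the ratio as a covariate its log2 change was -0.15 (adjusted p = 0.721), and without dehydrated 5 and control 1 it was -0.94 (adjusted p = 0.0219). Leaving out that pair of arrays takes away all overlap in the ratio, which is then 2.05 to 2.67 in dehydrated arrays and 1.26 to 1.91 in control arrays. Group and ratio therefore cannot be told apart in that setting. Another Map1b probe set (1371003_at), dim at 7.8 to 13.8 in dehydrated arrays and 8.6 to 15.5 in control arrays, differed by -0.10 in a fit without the filter.

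**Figure D3:**
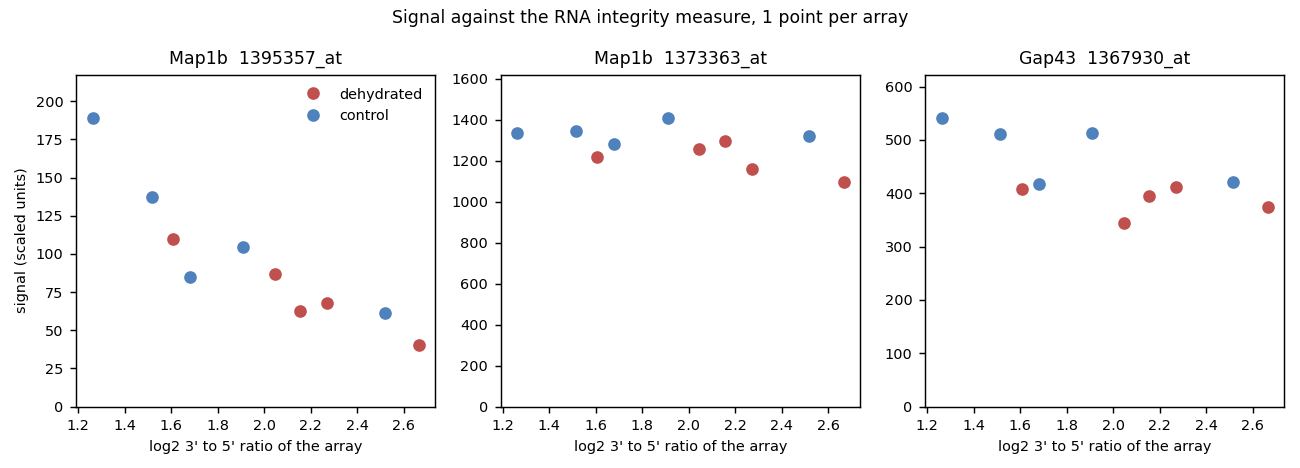
Signal intensity against the log2 ratio of 3' to 5' control signals of the same array for Map1b 1395357_at, Map1b 1373363_at and Gap43 1367930_at, 1 point per array (5 dehydrated, 5 control). Map1b 1395357_at reads 40 on the array of highest ratio (2.67) and 189.1 on the array of lowest ratio (1.26).

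Mapt encodes tau, which binds along axonal microtubules, and its 3 probe sets differed in sign. The brightest (1368137_at, Entrez Gene 29477) read 605.9, 535.0, 586.5, 474.1 and 434.5 in dehydrated arrays, against 515.3, 493.8, 525.4, 475.4 and 497.9 in control arrays. Dehydrated arrays lay on both sides of the narrow control range, and the log2 change was 0.06 (95% interval -0.13 to 0.25, limma adjusted p = 0.771). A dimmer probe set (1368138_at) read 122.5, 113.2, 85.9, 137.2 and 121.0 in dehydrated arrays, against 151.9, 126.9, 165.5, 141.2 and 162.9 in control arrays. Only dehydrated 4 reached above the lowest control array, control 2, and the log2 change was -0.36 (95% interval -0.62 to -0.11, unadjusted p = 0.00738, limma adjusted p = 0.122).

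The third Mapt probe set (1387071_a_at, the maker's mark for probes shared by transcripts of 1 gene) read 203.7, 200.6, 252.6, 202.5 and 226.0 in dehydrated arrays, against 245.7, 210.3, 267.5, 249.7 and 288.4 in control arrays. It differed by -0.21 (95% interval -0.41 to -0.01, limma adjusted p = 0.269), and 3 dehydrated arrays lay below all control arrays. The log2 distance between the brightest and the dimmest Mapt probe set averaged 2.14 in dehydrated arrays (1.75 to 2.70) and 1.72 in control arrays (1.58 to 1.92), and these ranges overlapped. Which tau transcripts each probe set reads was not analysed here. Averaging the 3 probe sets before the fit gave -0.17 (adjusted p = 0.217), a sign opposite to that of the brightest probe set.

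Uchl1 encodes a ubiquitin hydrolase abundant in neurons and neuroendocrine cells. Its probe set (1369977_at, Entrez Gene 29545) read 499.4, 449.9, 500.7, 574.1 and 585.0 in dehydrated arrays, against 568.3, 302.0, 494.9, 487.0 and 578.9 in control arrays. The groups overlapped, and control 2 stood far below all other arrays. The log2 change was 0.13 (95% interval -0.17 to 0.43, limma adjusted p = 0.686), and without control 2 it was -0.03, so the sign rests on that array.

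Read across the 15 kept probe sets, the lowest array was a dehydrated one for 11 and a control one for 4. The highest was a dehydrated one for 5 and a control one for 10. The same counts were not taken over all probe sets, so they have no background here. Of the 15 log2 changes, 9 (60%) were below 0, where 52.6% of those of all tested probe sets were. Several of the 15 share a gene. Dehydrated 2 was the lowest of all arrays for 5 probe sets and averaged 0.18 log2 units below the probe sets' means (median -0.18). Dehydrated 3 averaged 0.12 below, but its median was -0.01, so a few probe sets make up most of that average. Among control arrays, control 3 averaged 0.17 above (median 0.20), control 5 averaged 0.12 above (median 0.06) and control 4 averaged 0.11 above (median 0.10). Control 2 was the lowest for 3 probe sets and averaged 0.11 below (median -0.05). Dehydrated 1 was the highest for 4 probe sets and averaged 0.03 above. Dehydrated 2 was also the array with the highest 3' to 5' ratio, and control 5 that with the lowest. The next highest ratios, 2.52 on control 1 and 2.27 on dehydrated 1, went with averages 0.01 and 0.03 above. Control 2, with a ratio of 1.68, averaged below, and control 3, with a ratio of 1.51, averaged 0.17 above. Whether these averages follow the ratio was not tested.

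**Figure D4:**
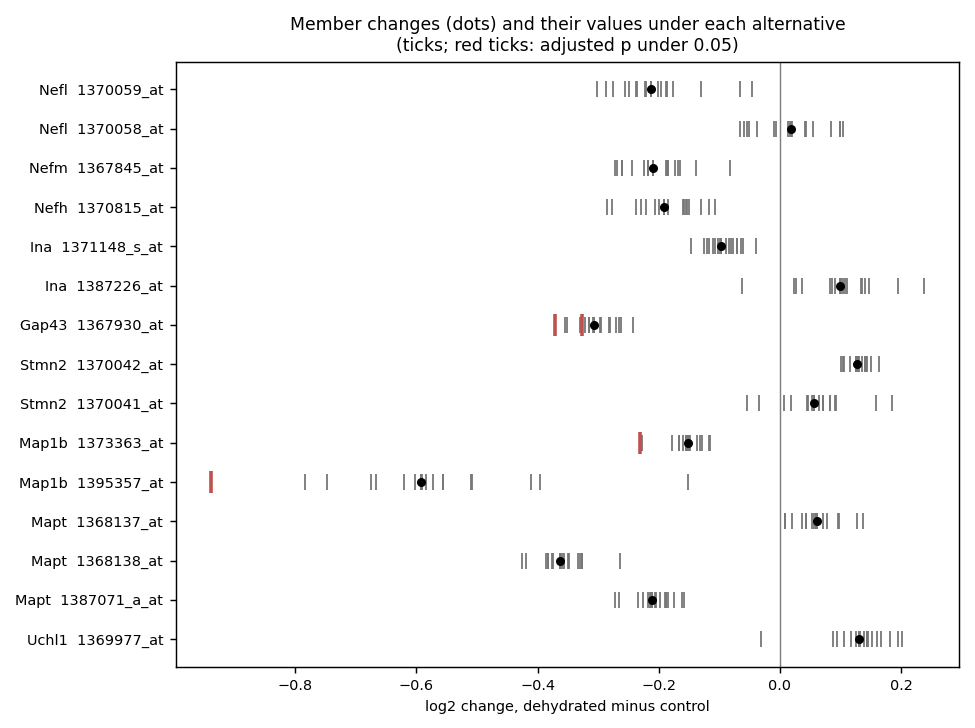
Log2 change, dehydrated minus control, of each kept member probe set in the main setting (dots) and under the alternative settings (ticks). Values that passed an adjusted p of 0.05 are in red, and the setting that averages the probe sets of a gene is not drawn. Ticks of Gap43, Mapt 1368138_at and Map1b 1373363_at stay below 0, and those of the dimmer Nefl probe set lie on both sides of 0.

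The genes whose signals followed the mean of the neurofilament subunits most closely were sought over the 10 arrays. That mean was taken over the log2 signals of the brightest Nefl, Nefm and Nefh probe sets. Among 10584 other genes the 5 highest Pearson correlations were those of Srm, which encodes spermidine synthase (0.950), Hnrnpa2b1, an RNA-binding protein (0.924), Nsmce4a, a subunit of a chromosome maintenance complex (0.918), Josd1, a deubiquitinating enzyme (0.915), and Me1, the cytosolic malic enzyme (0.912). The log2 changes of these 5 lay between -0.32 and -0.15, and none passed the test (limma adjusted p 0.203 to 0.361). The subunits themselves, each a part of that mean, correlated with it at 0.737 for Nefl, 0.695 for Nefm and only 0.469 for Nefh. Among the other members, Gap43 had a correlation of 0.683, Map1b of 0.625 and Uchl1 of 3.11e-05, while Ina had -0.23, Mapt -0.32 and Stmn2 -0.38. These correlations describe arrays that share scaling and RNA quality, and the highest of so many candidates are high by selection.

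Of the wider cytoskeletal and axonal genes, drawn up as 7 lists of 112 genes with 89 measured, 3 passed as higher and 3 as lower, beside the 2.31% and 0.878% of all genes. Among microtubule building blocks, 1 of 10 measured tubulins passed as higher and none as lower. At an unadjusted p under 0.05 there were 3 more, all lower and named after their values were seen: Tuba8 at -0.59, Tubb3 at -0.44 and Tuba4a at -0.39 on the log2 scale (limma adjusted p 0.144 to 0.224). Of all 10593 tested genes, 1997 had an unadjusted limma p under 0.05, 810 of them lower, which is the background for the other lists too. The gene that passed was Tubb2a, a neuronal beta-tubulin, at 766 ± 53.4 in dehydrated arrays and 597 ± 36.9 in control arrays (SD, n = 5 each, log2 change 0.36, limma adjusted p = 0.0117). The list's median log2 change was -0.10, and tubulin genes are so alike that probes may read more than 1 of them.

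Among 23 measured microtubule regulators, 1 passed as higher and none as lower, with a median of 0.03, and no other had an unadjusted p under 0.05. The gene was Stmn1, the stathmin found in many cell types, which read 2171.2, 2135.1, 2222.9, 2216.5 and 1955.6 in dehydrated arrays, against 1825.3, 1534.4, 1606.4, 1668.6 and 1467.6 in control arrays. The groups did not overlap, and the log2 change was 0.40 (95% interval 0.25 to 0.55, limma adjusted p = 0.00504), where its relative Stmn2 had 0.13 and missed the threshold. Whether these 2 changes differ from each other was not tested. None of 18 measured transport motor genes passed in limma, and 2 had an unadjusted p under 0.05. The smallest p was that of Dynll2, a dynein light chain, with a log2 change of 0.15 (adjusted p = 0.238). The other, Kif5c, a neuronal kinesin named after its values were seen, had a log2 change of -0.40 (adjusted p = 0.245).

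In the list of growth cone and membrane skeleton genes, 1 of 16 measured genes passed, as lower, and the median log2 change was -0.08, beside 0.01 over all genes. In all, 13 of the 16 (81.2%) were below 0, where 48.4% of all tested genes were, and this share was not tested. The gene that passed was Marcksl1, a calmodulin- and actin-binding protein of the MARCKS family. It read 219.5, 206.8, 225.1, 230.3 and 278.1 in dehydrated arrays, against 323.0, 327.7, 361.9, 293.4 and 327.4 in control arrays. All dehydrated arrays were lower than all control arrays, and it fell by 0.49 on the log2 scale (95% interval -0.68 to -0.30, limma adjusted p = 0.00564).

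The intermediate filament genes outside the neurofilament set included the largest change of the 7 lists. Gfap, the filament of astroglia and pituicytes, rose to 395 ± 121 in dehydrated arrays, against 71.2 ± 21.3 in control arrays (SD, n = 5 each, log2 change 2.38, limma adjusted p = 5.30e-06). Krt8, a keratin of simple epithelia, fell to 335 ± 49.0 in dehydrated arrays, against 469 ± 54.3 in control arrays (log2 change -0.48, adjusted p = 0.0180), a call that was lost without dehydrated 3 (adjusted p = 0.0626), control 3 (0.0585) or control 5 (0.0519). The other 8 of the 10 measured genes did not pass, among them the glial filament genes Nes at 0.89 (adjusted p = 0.0691), Vim at 0.24 (0.145) and Synm at -0.12 (0.665), and the list's median was 0.14.

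**Figure D5:**
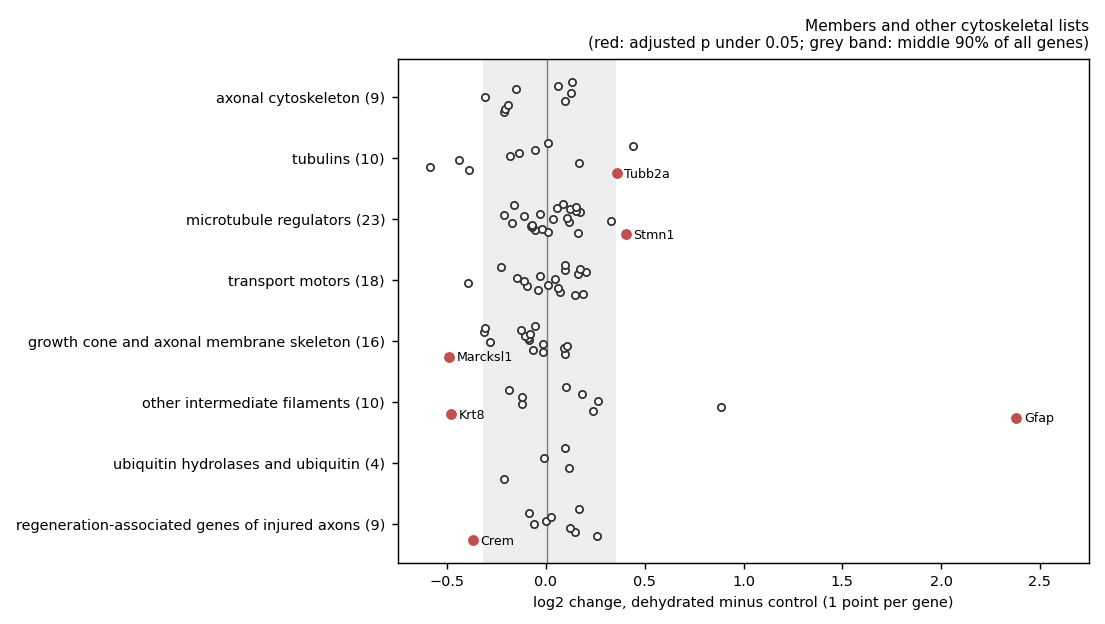
Log2 change, dehydrated minus control, of the measured genes of the member list and of the 7 wider lists, 1 point per gene, with genes at an adjusted p under 0.05 in red and a grey band over the middle 90% of all tested genes (-0.31 to 0.35). All 9 member genes lie inside the band, and Gfap lies at 2.38.

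Markers of the cells that the lobe could hold were summed per array. The sums add raw signals, so bright or strongly regulated genes weigh most in them, and they do not by themselves measure how many cells of a type the lobe held. Pan-neuronal markers, 8 of 10 measured, summed to 3567 to 4269 in dehydrated arrays (median 4138) and 3490 to 3849 in control arrays (median 3596), with an exact two-sided permutation p of 0.0397 and 0.0529 after adjustment over 8 marker lists. None of these 8 genes passed the limma test alone, and 1 had an unadjusted p under 0.05, the synaptic gene Snap25 (log2 change 0.21, adjusted p = 0.181), named after its values were seen. Pituicyte and astroglial markers, 9 of 11 measured, summed to 4304 to 4986 in dehydrated arrays and 3474 to 3948 in control arrays (adjusted exact permutation p = 0.0159). Of the 9, Galp, Gfap, Lhx2 and Slc1a3 passed as higher, while Aqp4 had a log2 change of -0.22, S100b of -0.21 and Rax of -0.19, none of which passed. Melanotroph markers, 4 of 7 measured, summed to 2683 to 3174 in dehydrated arrays and 3117 to 3509 in control arrays (adjusted exact permutation p = 0.0381), a difference that missed the threshold without any one of dehydrated 3 and 4 and control 1, 2, 3 and 5 (adjusted p up to 0.0762). Only Pcsk2, a prohormone convertase, passed among these 4 (391 ± 106 in dehydrated arrays and 715 ± 107 in control arrays, SD, n = 5 each), while Pomc had a log2 change of -0.09, Drd2 of -0.08 and Tbx19 of -0.01.

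The endothelial sums, over 4 of 5 markers, were 931.5 to 1180 in dehydrated arrays and 590.2 to 809.4 in control arrays, and those of 3 of 8 Schwann cell and oligodendrocyte markers were 1248 to 1370 in dehydrated arrays and 980.0 to 1134 in control arrays (adjusted exact permutation p = 0.0159 for each). Flt1, Kdr and Emcn passed as higher and Pecam1 stood at -0.01, while of the myelin markers Pmp22 passed as higher and Cnp and Mbp did not pass. The 5 magnocellular neuropeptide markers summed to 4344 to 5495 in dehydrated arrays and 2612 to 2953 in control arrays (adjusted exact permutation p = 0.0159). Avp and Oxt passed among them, while Gal had a log2 change of 0.34, Cartpt of 0.22 and Pdyn of 0.09, none of which passed. Secretory granule genes gave 9391 to 11003 in dehydrated arrays and 10204 to 11145 in control arrays (adjusted exact permutation p = 0.200). The 6 anterior lobe hormone genes gave 4824 to 9379 in dehydrated arrays and 2574 to 7950 in control arrays (adjusted exact permutation p = 0.429). Fshb passed as lower among them (log2 change -0.86, limma adjusted p = 0.00507). Tshb, at 1.17 (limma adjusted p = 0.260), Gh1, Prl, Lhb and Cga did not pass. The part that these shifts in marker signals have in the values of the axonal cytoskeleton genes was not tested.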

How the data were processed

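Total RNA was hybridised to 1 array per pool of 5 rats, per the labels. The deposited table gives a linear signal intensity for each probe set on every array. GCOS 1.2 is named in the submitters' processing notes, and its algorithm and scaling are not given in the sources used here. The trimmed means show that the authors had scaled all arrays alike, so no scaling was added. Detection calls were not used, signal over background is therefore unknown, and no level of 1 gene was read as higher or lower expression than that of another; brightness serves only the filter, the choice of probe set and the naming of dim ones.

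Of 31099 probe sets, 57 controls were left out. Of the others, 20826 had 1 gene symbol in the platform annotation, 436 several and 9780 none. RefSeq gene IDs (GRCr8) changed 0 symbols. Intensities were turned into log2(signal + 5), which understates changes of dim probe sets, and the brightest 60% by mean log2 over all arrays were kept. Where a gene had several kept probe sets, that with the highest mean stood for it. The test was limma 3.58.1 under R 4.3.3 (two-sided, lmFit and eBayes with trend), adjusted by Benjamini-Hochberg over the kept probe sets and called under 0.05. Array-level measures had an exact permutation test over 252 splits, whose smallest two-sided p is 0.00794. Scripts ran in Python 3.11.15 with scipy 1.17.1. The limma fit alone was tested on simulated data, with planted changes larger than those of the brightest member probe sets.

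The members and lists were chosen with earlier results of these data known. Named genes are all members, in each list up to 4 called genes by size or else the gene with the smallest p, and the 5 genes most like the neurofilament mean. Alternatives were quantile, median and cyclic loess scaling, pseudocounts of 1 and 20, no filter or the brightest 40%, eBayes without trend or robust, a covariate for the 3' to 5' ratio, averaged probe sets, each array left out, and dehydrated 5 and control 1 left out together. Those for the ratio itself and for the marker sums were added after seeing the data.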

Additional observations from a re-analysis of the deposited data

Results flagged for a closer look

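In 3 of the 54 groups of 5 arrays that were examined, 1 array stood apart from the other 4 by Dixon's test at the 95% level, and chance alone flags about 1 in 20 groups. Nefl (1370059_at) read 71.3 on dehydrated 2, where the other dehydrated arrays read 124.0 to 143.8, and without it the log2 change was -0.046 in place of -0.21. Prph (1368028_at) read 6.5 on dehydrated 5, where the other dehydrated arrays read 13.3 to 16.7, all of them dim. Uchl1 (1369977_at) read 302.0 on control 2, where the other control arrays read 487.0 to 578.9.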

How the results depend on the processing

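Of 323 values of the 15 member probe sets under alternatives, 307 kept their sign and their side of the threshold, 4 passed where the main setting did not, 0 lost a call and 12 changed sign. The number of member genes called was 0, and became 1 under quantile normalization (Map1b), 1 without dehydrated 5 and control 1 (Gap43, log2 change -0.37, adjusted p = 0.0270), and 0 to 1 with 1 array left out (Gap43 without dehydrated 5). Without both dehydrated 5 and control 1 the groups do not overlap in the 3' to 5' ratio, so all values of that setting are confounded with it. The adjusted p of Gap43 ranged from 0.0270 to 0.216 over 22 alternatives. The dimmer Nefl probe set was at -0.0069 with the 3' to 5' ratio as covariate, at -0.054 without dehydrated 5 and control 1, and at -0.066 to 0.10 with 1 array left out. With that covariate the brighter Ina probe set was at -0.062 and the dimmer Stmn2 probe set at -0.055, and that Stmn2 probe set lay at -0.035 to 0.16 with 1 array left out. Uchl1 lay at -0.031 to 0.20 with 1 array left out, and averaging probe sets gave -0.17 for Mapt and -0.035 for Dynll2. The number of all probe sets called, 458, was 240 without the trend, 1398 without dehydrated 5 and control 1, and 218 to 1156 with 1 array left out, moving by over 1.5 times without dehydrated 1, 3 or 5 or control 2, 3, 4 or 5. Genes of the wider lists called lower, 3, numbered 1 without the trend, 7 without dehydrated 5 and control 1, and 1 to 7 with 1 array left out (7 without dehydrated 5, 1 without dehydrated 3, control 3 or control 5). Those called higher numbered 2 to 4 throughout. Stmn1, Marcksl1 and Gfap passed in all 22 alternatives, whereas Tubb2a missed without the trend (adjusted p = 0.0607), Krt8 in 4 and Crem in 13. The difference of the 3' to 5' ratio was 0.24 to 0.56 with 1 array left out. Of the 12 alternatives for marker sums, pan-neuronal sums passed only without dehydrated 5 and granule sums only under quantile normalization (adjusted exact permutation p = 0.0127 for each). The causes were not tested. No paired analysis was possible because the labels give no replicate numbers or pairing. With 5 arrays per group, small changes can be missed, and where a given interval includes 0 the change cannot be told from none. With no measure of background, dim probe sets such as that of Prph say little.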

Other observations

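Genes known to be switched on in neurons after axon injury, such as Jun and Stat3, formed a list of 14. Sprr1a, Atf3, Sox11, Galr1 and Nts were not measured, and of the 9 that were, 1 passed. At an unadjusted p under 0.05 there was 1 more, Jun, a subunit of the AP-1 transcription factor, named after its values were seen, at 139 ± 19.4 in dehydrated arrays and 115 ± 15.1 in control arrays (SD, n = 5 each, log2 change 0.26, limma adjusted p = 0.261). The gene that passed was Crem, a cAMP-responsive transcription factor, which read 354.3, 411.9, 346.7, 475.8 and 349.7 in dehydrated arrays, against 463.8, 482.3, 482.1, 496.5 and 578.5 in control arrays. Dehydrated 4 reached into the control range, and Crem fell by 0.37 on the log2 scale (95% interval -0.57 to -0.17, limma adjusted p = 0.0479), close to the threshold. The call was lost when any one array other than dehydrated 4 was left out, with an adjusted p of up to 0.138. The median log2 change of the list was 0.03, beside 0.01 over all genes.

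Beside Uchl1, 4 of 8 other genes of ubiquitin and its hydrolases were measured. None passed in limma, and 1 had an unadjusted p under 0.05. This was Bap1, a nuclear ubiquitin hydrolase, at 174 ± 20.1 in dehydrated arrays and 203 ± 19.9 in control arrays (SD, n = 5 each, log2 change -0.21, limma adjusted p = 0.270).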
